A study of Mus musculus with 6 samples.

Results

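The genes described here are a Wnt ligand, 3 Frizzled receptors and 6 secreted antagonists or antagonist-family members, measured in dividing and in differentiated muscle cells. They were chosen by name. The members are WNT5A, the receptors FZD1, FZD2 and FZD7, and the secreted proteins DKK1, DKK3, SFRP1, SFRP4, FRZB and WIF1, 10 of the 11937 genes for which the arrays hold a probe set with a single gene symbol. All 21 probe sets annotated with 1 of these symbols were followed, and 7 of the genes have more than 1. The samples are labelled as C2C12, an established mouse line whose proliferating myoblasts withdraw from the cell cycle and fuse into multinucleated myotubes. There were 3 arrays of myoblasts and 3 of myotubes. The labels place the myotubes in 2.5% horse serum and state no medium for the myoblasts, no time in differentiation medium and no allele or agent. Whether arrays of the same group came from different cultures is not stated, so the p-values reflect just the array-to-array spread, which may be technical.

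Wnt proteins are secreted lipid-modified signals that bind Frizzled receptors on the cell surface. Together with the LRP5 and LRP6 co-receptors this stabilises beta-catenin, which acts with TCF/LEF factors in the nucleus, while other Frizzled signals run through cell polarity and calcium without beta-catenin. Antagonists act outside the cell: Dickkopf proteins such as DKK1 bind the LRP co-receptors, and secreted Frizzled-related proteins (SFRP1, SFRP4, FRZB) and WIF1 bind the Wnt ligands themselves. In skeletal muscle, Wnt signals are known for their parts in embryonic myogenesis, in the renewal of satellite cells through Frizzled 7, and in the differentiation of myoblasts.

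The arrays were HG-U133A, built from short probes against human transcripts, whereas the labels name the mouse. Which species the RNA came from was not settled, and the gene symbols used are those of the human probe design. Each value is a signal in arbitrary units. The brightest of 27 control probe sets for bacterial transcripts that were not spiked lay between 251.5 and 1040.2 on the different arrays, and a signal at or below that control on its own array is called not told from background. Of 9 myotube markers 7 were tested and 6 rose. The myogenic regulators MYF5, PAX7 and MYOG were not told from background on any array, and MYOD1 exceeded it on 1. Of 8 myoblast markers 4 were tested and 0 passed in limma (2 higher in myotubes and 0 lower at an unadjusted p under 0.05). The tested ones were CDH15, NCAM1, DES and CHRNA1. Their median log2 change, myotube minus myoblast, was 0.61, and 0.058 with a block for the laboratory series given below. The cadherin CDH15 was above background on all 6 arrays. In the run records the myotube arrays share a scan day and a chip lot, and the myoblast arrays have a different day and different lots, so neither can be told apart from cell stage. By runs of consecutive laboratory codes, myoblast array 1 belonged to the series of the 3 myotube arrays, and myoblast arrays 2 and 3 formed a second series. These 2 arrays correlated with each other at Pearson's r = 0.988 on the log2 scale (over probe sets, whose values are not independent), and with myoblast array 1 at 0.908 and 0.912. Their hybridisation spike-ins gave geometric means of 3539 and 4275, against 12320 to 71439 on the other 4 arrays. Myoblast array 3 was grouped by its description, since its title reads Grow (G3) and does not name myoblasts. That description counts arrays 1 and 2 only. The run records also number the myoblast arrays differently: arrays 1, 2 and 3 by title are G3, G1 and G2 there. The titles' numbers are used throughout. By those numbers, each myoblast array was washed on the same fluidics module as the myotube array of its number, so a block for the replicate number is also one for the module.

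DKK1 was the member that changed past the threshold, and it was lower in myotubes. Of the 13 member probe sets bright enough to be tested, from 8 of the 10 genes, 1 (7.69%) fell, 0 rose and 12 did not pass. A probe set is said to have risen, fallen or been called where its limma p-value, adjusted over all 13296 tested probe sets, was below 0.05. Over all tested probe sets 6.43% were called lower and 4.95% higher, so the members' share of calls lay near that of the whole array. At an unadjusted p under 0.05 limma gave 2 member probe sets higher and 2 lower. The median log2 change of the 13 was -0.42, against 0.088 over all tested probe sets, and 8 of the 13 had a change below 0. This lean did not hold with the laboratory series as a block, where the medians were 0.19 and 0.0015. The 13 are probe sets, and some genes count more than once among them. The groups did not overlap for 4 of the 13, 3 of them higher in myotubes (23.1%) and 1 lower (7.69%), where 17.5% and 15.5% of all tested probe sets did so. The plot of every member probe set shows these signals array by array.

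**Figure D1:**
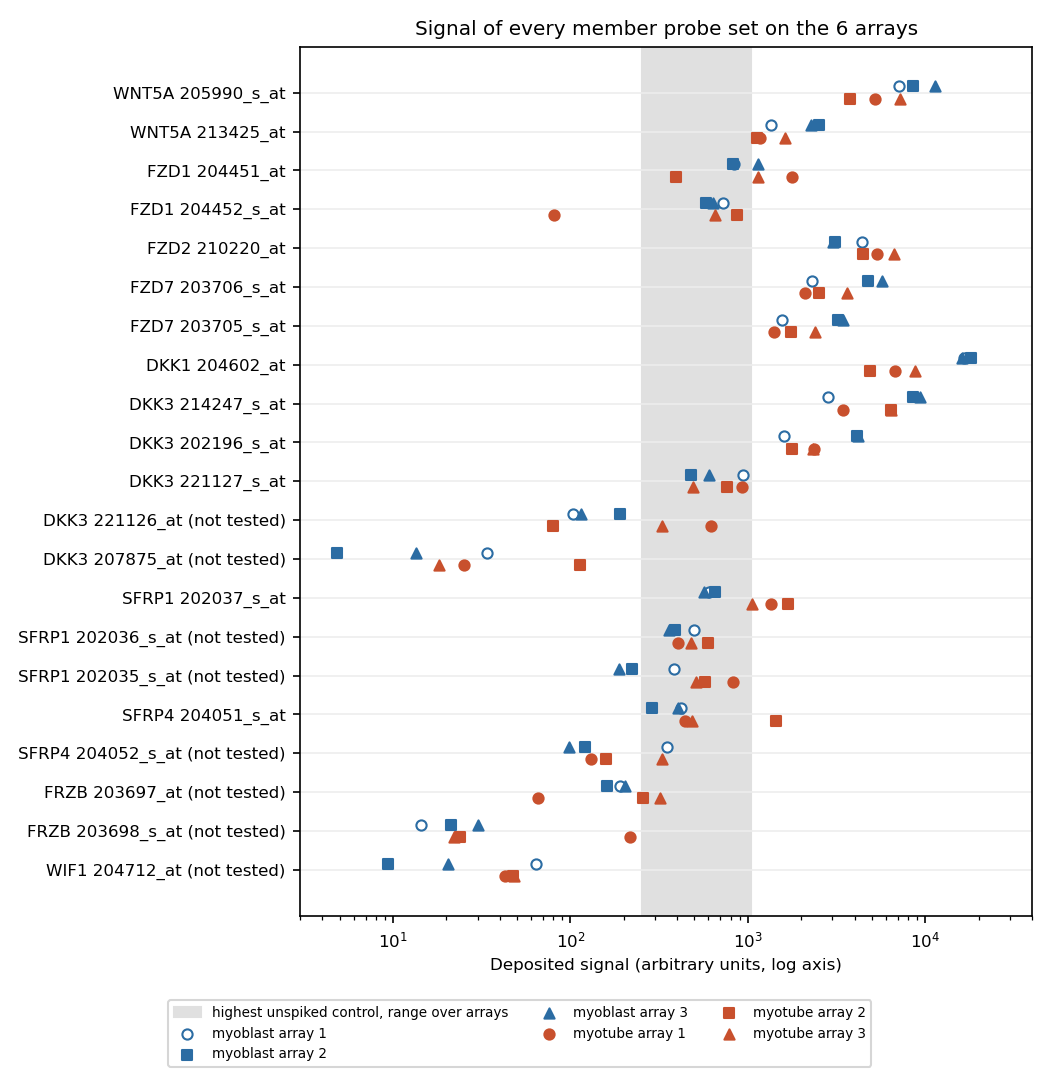
Deposited signal (arbitrary units, log axis) of all 21 member probe sets, with 1 point per array: blue for myoblasts (open circle for array 1), orange for myotubes. The grey band spans the highest unspiked control of the different arrays, 251.5 to 1040.2. DKK1 separates the groups most widely among the bright members, while FRZB and WIF1 lie within or below the band.

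With the laboratory series as a block, a fit that in effect sets myoblast array 1 against the 3 myotube arrays, 0 of the 13 member probe sets passed in limma (2 higher and 1 lower at an unadjusted p under 0.05). In that fit 1.54% of all tested probe sets were called higher and 1% lower. Leaving out myoblast array 1 had the opposite effect. That fit sets myoblasts of the second laboratory series against myotubes of the first, so stage and series cannot be told apart in it. There 2 of the 13 were called higher (15.4%) and 6 lower (46.2%), against 13.6% and 12.5% of all tested probe sets. The 2 were FZD2 and SFRP1, and the 6 were both probe sets of WNT5A, both of FZD7, DKK1 and 1 of DKK3. Without myotube array 3 the count called lower was 2. In 6 of the 13 the signal of myoblast array 1 lay within the range of the 3 myotube arrays (46.2%), as it did for 45.3% of all tested probe sets.

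**Figure D2:**
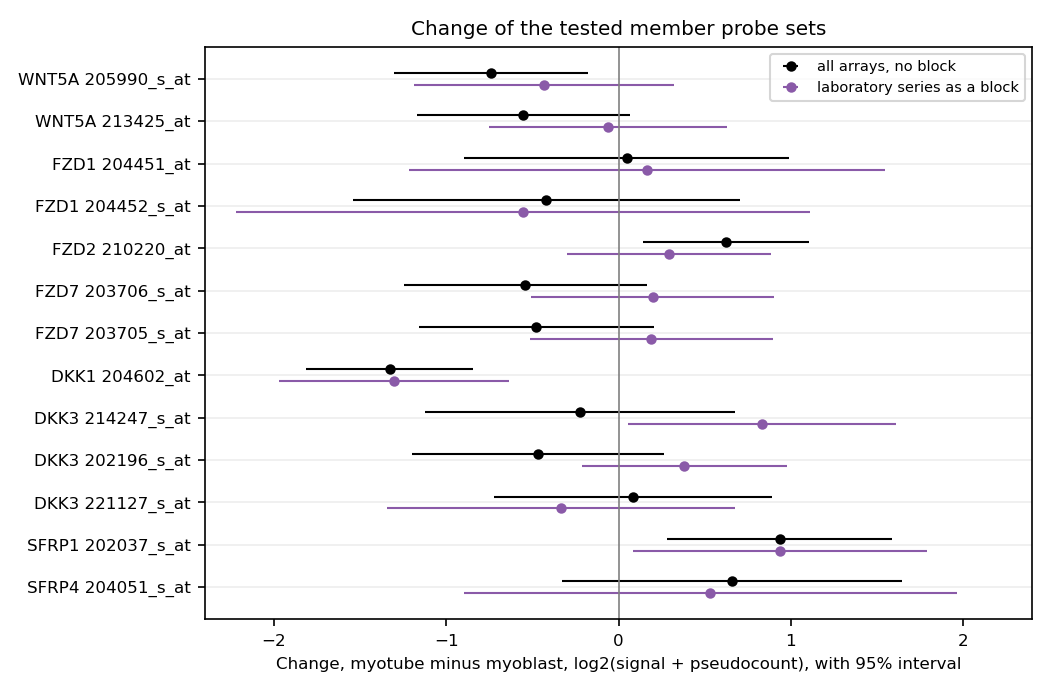
Change of the 13 tested member probe sets, myotube minus myoblast, on the log2(signal + 197) scale with 95% intervals, with all arrays (black) and with a block for laboratory series (purple). The DKK1 change is -1.33 and -1.30 in these fits, whereas FZD7 and the brighter DKK3 probe sets cross 0 between them.

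The ligand WNT5A typically signals without beta-catenin, through ROR2 and Frizzled receptors. Its brighter probe set, 205990_s_at, read 7104, 8539 and 11340 in myoblasts and 5184, 3788 and 7179 in myotubes, in the order of arrays 1, 2 and 3 as in all values that follow. The groups overlapped, since myotube array 3 lay just above myoblast array 1. The log2 change was -0.74 ± 0.25 (SE, n = 3 per group), with a 95% interval from -1.30 to -0.18, and it did not pass (limma adjusted p = 0.0852). Of 20 other settings it passed in 3: with the replicate block (-0.74, adjusted p = 0.0223), without myoblast array 1 (-0.89, adjusted p = 0.0371) and without myotube array 3 (-0.96, adjusted p = 0.0405). The dimmer probe set, 213425_at, read 1351, 2518 and 2260 in myoblasts and 1171, 1124 and 1614 in myotubes. Here myoblast array 1 lay among the myotube arrays and below the other myoblast arrays. Its change was -0.55 ± 0.28 (adjusted p = 0.207), and without myoblast array 1 it was -0.80 (adjusted p = 0.0392). In the series block these changes were -0.43 ± 0.33 and -0.061 ± 0.30.

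Of the receptors, FZD2, which can bind WNT5A, had its groups apart. Its probe set 210220_at read 4389, 3090 and 3035 in myoblasts and 5367, 4447 and 6704 in myotubes. The highest myoblast array, number 1, was close to the lowest myotube array. The change was 0.62 ± 0.22 (95% interval 0.14 to 1.11) and did not pass (adjusted p = 0.0895). The series block gave 0.30 (adjusted p = 0.637), and the fit without myoblast array 1 gave 0.79 (adjusted p = 0.0247).

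FZD7, the receptor known from satellite cells, is covered by 2 probe sets that gave the same picture. The brighter, 203706_s_at, read 2299, 4733 and 5684 in myoblasts and 2088, 2508 and 3605 in myotubes. The dimmer, 203705_s_at, read 1568, 3240 and 3440 in myoblasts and 1413, 1761 and 2394 in myotubes. In both, myoblast arrays 2 and 3 were the 2 highest of the 6, and myoblast array 1 lay among the myotubes. The changes were -0.54 ± 0.32 and -0.48 ± 0.31, and neither passed (adjusted p = 0.273 and 0.312). Without myoblast array 1 both passed (-0.91 and -0.81, adjusted p = 0.0267 and 0.0393). The series block turned the sign, to 0.20 and 0.19, with 95% intervals of -0.51 to 0.91 and -0.52 to 0.90.

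For FZD1, the 2 probe sets differed from each other. The signals of 204451_at were 838.1, 822.0 and 1138 in myoblasts and 1781, 391.7 and 1139 in myotubes, and those of 204452_s_at were 729.0, 579.1 and 634.3 in myoblasts and 80.3, 865.6 and 651.8 in myotubes. Myotube array 1 was thus the highest of 6 on the first probe set and the lowest of 6 on the second, and myotube array 2 the reverse. The first was above background on 4 arrays and the second on 3. Their changes were 0.048 ± 0.43 and -0.42 ± 0.51 (adjusted p = 0.949 and 0.595), with 95% intervals of -0.90 to 0.99 and -1.54 to 0.71.

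Among the antagonists, DKK1 lowers beta-catenin signalling by binding LRP5 and LRP6, and its own gene is a known target of beta-catenin. Its single probe set, 204602_at, read 16620, 18020 and 16170 in myoblasts, and 6741, 4914 and 8743 in myotubes. Every myoblast array was far above every myotube array, and the 3 myoblast arrays lay close together across both laboratory series. The mean went from 16940 ± 963 to 6799 ± 1915 (SD, n = 3). On the log2(signal + 197) scale DKK1 fell by 1.33 ± 0.22 (95% interval of the change -1.81 to -0.84, limma adjusted p = 0.00529), a fitted fold of 2.51. All 6 arrays were well above background, and with pseudocounts of 50 and 500 the change was -1.35 and -1.29. DKK1 was called lower in 18 of 20 other settings, among them each of the 6 fits that leave out 1 array (highest adjusted p 0.0342). The 2 exceptions were the series block (-1.30 ± 0.29, 95% interval -1.97 to -0.64, adjusted p = 0.0594) and the first series alone (-1.30, adjusted p = 0.0629). The size of the fall was thus nearly the same in them, with a wider error.

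**Figure D3:**
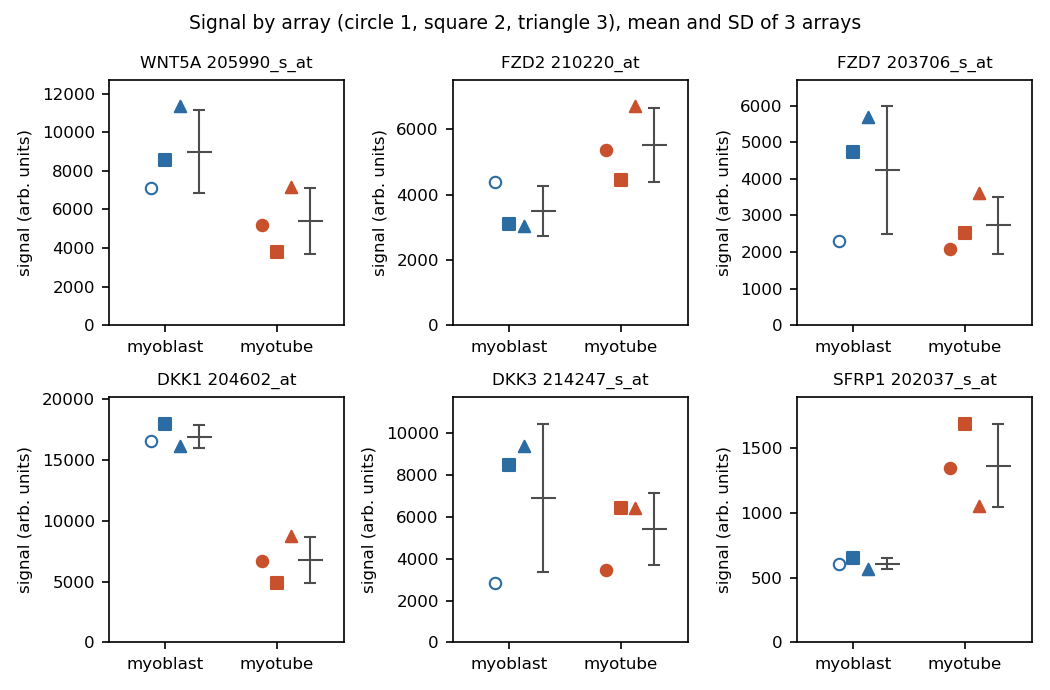
Signal (arbitrary units, axes from 0) of 6 member probe sets on each array (circle 1, square 2, triangle 3), with the group mean and SD of 3 arrays beside the points. DKK1 and SFRP1 separate the groups with myoblast array 1 (open circle) beside the other myoblasts. For FZD7 and DKK3 that array lies with or below the myotubes.

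RefSeq windows of the mouse genes (GRCm38.p6) were at hand for 5 of the 10 members, Dkk1, Fzd1, Fzd7, Frzb and Wif1. The 250 bases before the annotated start of Dkk1 (chr19:30549497-30549746, minus strand) are printed since Dkk1 is the member that changed, and the capitals mark the match to a TCF/LEF motif, searched as CTTTGAA or CTTTGAT on both strands.
Dkk1: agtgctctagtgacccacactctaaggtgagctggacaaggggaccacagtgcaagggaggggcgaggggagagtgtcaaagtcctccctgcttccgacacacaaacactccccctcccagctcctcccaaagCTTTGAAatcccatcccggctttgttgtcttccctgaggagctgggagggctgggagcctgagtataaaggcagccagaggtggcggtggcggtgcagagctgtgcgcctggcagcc
The match begins 117 bases before the start. None of the other 4 member windows holds either form, and 7.48% of all 32851 windows of this length do. A match of letters is a description of the window, and it shows no binding. Since the source species is unsettled, the window may not be that of the gene measured.

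DKK3 is a divergent Dickkopf protein that is not known to bind LRP6 as DKK1 does. Its brightest probe set, 214247_s_at, read 2848, 8489 and 9393 in myoblasts and 3443, 6408 and 6438 in myotubes. The next, 202196_s_at, read 1598, 4140 and 4174 in myoblasts and 2376, 1772 and 2331 in myotubes. On both, myoblast array 1 was the lowest of the 6 arrays and the other 2 myoblast arrays were the highest, so the myoblast group spanned all the myotube values. The third tested probe set, 221127_s_at, read 939.5, 478.3 and 604.5 in myoblasts and 923.8, 759.3 and 489.4 in myotubes, with myoblast array 1 the highest. It was above background on 4 arrays, and not on myotube arrays 2 and 3. The changes were -0.22 ± 0.41, -0.47 ± 0.33 and 0.086 ± 0.36, none past the threshold (adjusted p = 0.728, 0.353 and 0.887). Without myoblast array 1 the second passed (-0.90, adjusted p = 0.0150). In the series block the 3 changes were 0.83 ± 0.34, 0.38 ± 0.26 and -0.33 ± 0.44, each of the opposite sign (adjusted p = 0.261, 0.519 and 0.770). Thus no direction for DKK3 held in both fits. The remaining DKK3 probe sets, 221126_at and 207875_at, ranged from 79.5 to 621.9 and from 4.8 to 113.2 and were not told from background on any array.

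SFRP1, which binds Wnt ligands through a Frizzled-like domain, had the largest positive change among the members without passing the threshold. Its brightest probe set, 202037_s_at, read 606.9, 649.4 and 568.0 in myoblasts and 1349, 1690 and 1051 in myotubes. The groups were well apart, and the myoblast arrays agreed closely across both laboratory series. The mean went from 608 ± 40.7 to 1363 ± 320 (SD, n = 3), and the log2 change was 0.94 ± 0.30 (a fitted fold of 1.91, 95% interval 0.28 to 1.59, limma adjusted p = 0.0669). The series block gave 0.94 ± 0.37 (adjusted p = 0.250), and leaving out myoblast array 1 gave 0.93 (adjusted p = 0.0437). The signal was above background on 5 arrays and not on myoblast array 1. With pseudocounts of 50 and 500 the change was 1.08 and 0.74. Below the brightness filter, 202035_s_at read 383.2, 223.3 and 186.8 in myoblasts and 824.3, 569.8 and 509.6 in myotubes. Its groups did not overlap, but only 1 of the 6 signals, that of myotube array 1, was above background. The third probe set, 202036_s_at, read 495.3, 388.0 and 360.5 in myoblasts and 405.8, 597.5 and 480.4 in myotubes, with the groups overlapping and 2 signals above background.

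SFRP4, of the same family, gave 419.3, 289.2 and 405.5 in myoblasts and 442.5, 1436 and 482.9 in myotubes on 204051_s_at. The groups did not overlap, but myotube array 2 alone stood high, and the other 2 myotube arrays were close to the myoblasts. The change was 0.66 ± 0.45 (adjusted p = 0.336), and without myotube array 2 it was 0.22. Only 2 of the 6 signals were above background. Its second probe set, 204052_s_at, read 351.7, 120.3 and 97.6 in myoblasts and 130.2, 157.8 and 328.8 in myotubes, none above background.

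FRZB and WIF1 had no probe set that passed the brightness filter. FRZB (203697_at) read 190.7, 159.9 and 201.9 in myoblasts and 65.4, 256.4 and 319.6 in myotubes, and its other probe set, 203698_s_at, lay between 14.3 and 216.7. WIF1 (204712_at) read 64.1, 9.4 and 20.5 in myoblasts and 42.8, 47.5 and 48.2 in myotubes. None of these signals was told from background on its array, so these arrays give neither gene a level or a direction. In all, 6 of the 21 member probe sets were above background on no array and 8 on all 6.

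The other genes of the pathway were taken from 8 lists by role, each gene by its brightest probe set. Of 65 tested genes 1 rose (1.54%), 7 fell (10.8%) and 57 did not pass, where 4.95% and 6.43% of all tested probe sets were called higher and lower. Their median log2 change was 0.11, against 0.088 over all tested probe sets. In the series block 0 of the 65 passed in limma, and 14 (21.5%) did so at an unadjusted p under 0.05, against 17.5% of all tested probe sets.

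Of 6 other ligands 1 fell. WNT5B, the nearest relative of WNT5A, read 4094, 5396 and 5474 in myoblasts and 1869, 1331 and 2478 in myotubes. The groups were far apart, with a change of -1.34 ± 0.24 (adjusted p = 0.00801), and with the series block it was -1.07 (adjusted p = 0.125). It was called in each fit that left out 1 array. The median of the 6 ligands was 0.64, of the other sign, and 0.34 in the series block. Signals near background limit it: WNT2B and WNT7B were above background on 2 arrays each, WNT10B and WNT16 on 3 each.

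Of 6 other receptors and co-receptors 0 passed in limma (2 higher and 1 lower at an unadjusted p under 0.05), and their median change was 0.050. FZD6 and FZD4 had the smallest p-values, with changes of -1.02 ± 0.41 and 0.66 ± 0.29 (adjusted p = 0.129 and 0.150). FZD6 was at 0.020 and FZD4 at 0.19 in the series block. Without myoblast array 1 both passed (-1.54 and 0.90, adjusted p = 0.00470 and 0.0289). Among the other secreted modulators only CER1 was tested (0.41 ± 0.30, adjusted p = 0.369). In ligand secretion and receptor turnover, KREMEN2, a membrane receptor that binds Dickkopf proteins, had a change of 1.02 ± 0.40 and WLS, the carrier of Wnt proteins to the surface, one of 0.23 ± 0.20 (adjusted p = 0.125 and 0.454). KREMEN2 passed without myoblast array 1 (1.26, adjusted p = 0.0484) and was at 0.53 in the series block, but only 2 of its 6 signals were above background.

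Of 14 genes of cytoplasmic transduction and beta-catenin turnover 1 fell, PPP2CA, the catalytic subunit of a phosphatase with many other substrates (-0.81 ± 0.18, adjusted p = 0.0180). At an unadjusted p under 0.05 limma gave 0 higher and 2 lower, the other being CTNNB1, beta-catenin itself. CTNNB1 was above background on all 6 arrays, and its change of -0.74 ± 0.24 did not pass (adjusted p = 0.0707). In the series block it was -0.64. Of 11 TCF/LEF factors and cofactors 0 passed in limma (2 higher and 1 lower at an unadjusted p under 0.05). TCF7L2 and TCF7L1, both among the factors that recruit beta-catenin to DNA, had changes of 0.64 ± 0.21 and 0.87 ± 0.34 (adjusted p = 0.0785 and 0.118). With the series block these were 0.99 and 0.25. TCF7L1 passed without myoblast array 1 (1.18, adjusted p = 0.0255).

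Of 6 tested genes known as beta-catenin targets 4 fell and 2 did not pass, where 6.43% of all tested probe sets were called lower. Their median change was -0.85, and -0.71 in the series block. FOSL1, an AP-1 subunit, fell by 1.39 ± 0.21 on the log2 scale (adjusted p = 0.00399), from 5841 ± 757 to 2134 ± 542 (SD, n = 3). CCND1, cyclin D1, fell by 1.34 ± 0.30 (adjusted p = 0.0191), with myoblast array 1 at 6977 and arrays 2 and 3 at 14099 and 13791, against 3450 to 6020 in myotubes. CD44, a hyaluronan receptor, fell by 0.86 ± 0.23 (adjusted p = 0.0358), a call made on 1 of its 7 tested probe sets. PPARD, a nuclear receptor, fell by 0.84 ± 0.22 (adjusted p = 0.0336), on 1 of 2 tested probe sets. These genes are known to answer to other signals as well, and AXIN2, NKD1 and SP5, more specific to the pathway, had no probe set with a single symbol here. Of the named genes FOSL1 was called in each fit that left out 1 array, while CCND1, CD44, PPARD and PPP2CA were lost in 3, 4, 5 and 4 of the 6 (highest adjusted p 0.101, 0.133, 0.179 and 0.0971). Over all 20 other settings these were called in 13, 11, 10 and 11, and FOSL1 in 18. In the series block FOSL1 was at -1.19 (adjusted p = 0.0716) and CCND1 at -0.69 (adjusted p = 0.284).

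**Figure D4:**
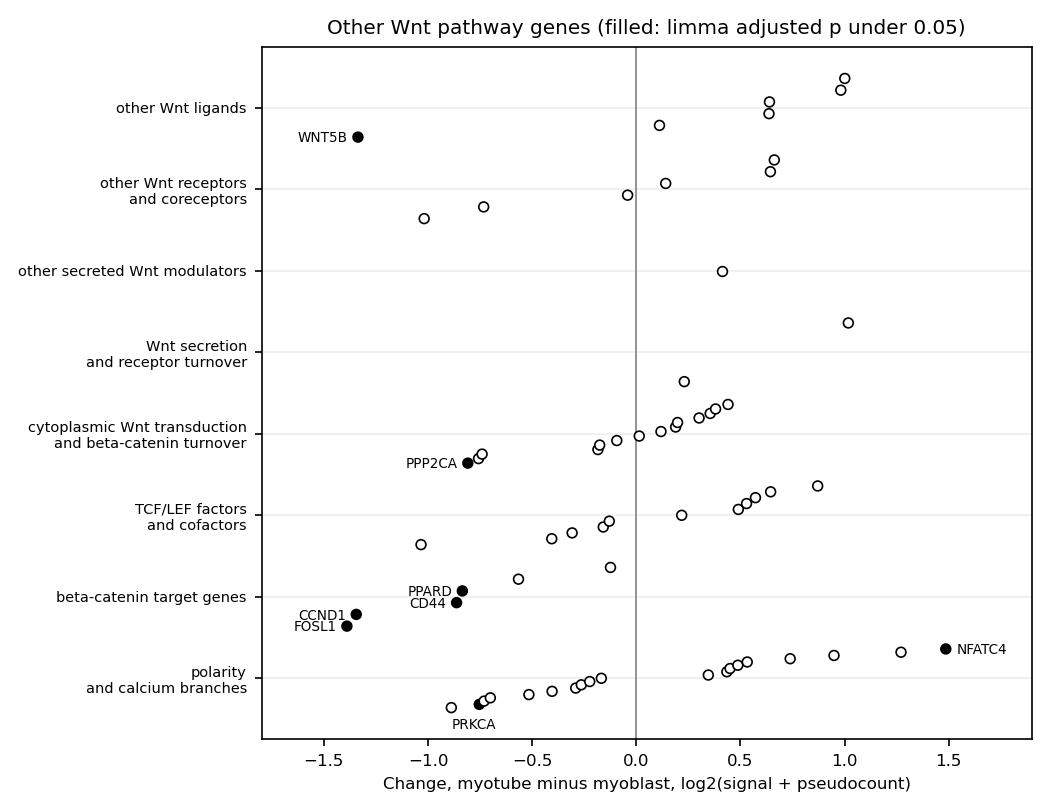
Change of 65 other Wnt pathway genes, myotube minus myoblast, on the log2(signal + 197) scale, 1 point per gene and 1 row per list, filled where the limma adjusted p was below 0.05. The filled points are WNT5B, PPP2CA, FOSL1, CCND1, CD44, PPARD and PRKCA to the left of 0 and NFATC4 to the right.

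Of 19 genes of the polarity and calcium branches 1 rose and 1 fell. NFATC4, a transcription factor that calcineurin activates, had a change of 1.49 ± 0.31 (adjusted p = 0.0155) and PRKCA, a calcium-dependent kinase, one of -0.75 ± 0.21 (adjusted p = 0.0474), each called on 1 of 2 tested probe sets. In the series block they were 0.86 and -0.40 (adjusted p = 0.213 and 0.460). Leaving out 1 array ended the NFATC4 call for myoblast array 3 or myotube array 2 and the PRKCA call in 4 of the 6 fits (adjusted p up to 0.0823 and 0.220). Over all 20 other settings NFATC4 was called in 14 and PRKCA in 7. The PRKCA call also ended with a pseudocount of 50, no filter, quantile scaling, the robust and no-trend fits, chip lot as a block and myoblast arrays 2 and 3 averaged.

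Markers of fibroblasts, which are known to make SFRP and DKK3 proteins, moved with the groups. Of 10 such markers 9 were tested and 7 rose (median change 1.54), 5 of them also with the series block. Their summed signal was 77970 to 135000 on the myoblast arrays and 244900 to 355000 on the myotube arrays, most of it from COL1A1 and COL3A1. DPT was not told from background on any array, and PDGFRA read 1530, 4718 and 3964 in myoblasts and 2058, 2593 and 2831 in myotubes, with myoblast array 1 again below the other 2. In these bulk samples fewer cells of a type and less RNA per cell cannot be told apart, and the part of such cells in the values of DKK1, DKK3, SFRP1 and SFRP4 was not tested. Of the other lists, 1 of 3 tested smooth muscle markers rose and 1 fell, 0 of 4 osteoblast and chondrocyte markers passed in limma (1 at an unadjusted p under 0.05), the single tested adipocyte and endothelial markers did not pass, and no leukocyte marker was bright enough to be tested.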

How the data were processed

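Total RNA of 6 samples labelled as C2C12 was hybridised to 6 arrays, 3 per group. The values are an intensity, 1 linear signal per probe set, deposited by the authors after MAS5, per the submitters' processing notes, of unstated version. The array run records, other than measurements, were deposited by the authors as text and gave chip lot and laboratory code. Of 22283 probe sets, 68 controls and 55 for Y-linked genes, XIST or TSIX were left out. The platform annotation named genes; 19031 of the rest had 1 symbol, 1022 several and 2107 none. The scale for testing was log2(signal + 197), the pseudocount being the table's 25th percentile, which understates folds of dim genes. The test left out probe sets whose mean fell under the 40th percentile. Groups were compared across all genes by limma 3.58.1 in R 4.3.3 (two-sided moderated test, mean-variance trend), adjusting p by Benjamini-Hochberg. The random block used statmod 1.5.0. ± after a log2 change is its SE. Depth has no counterpart, and the number of arrays limits precision. Figures used matplotlib 3.10.9.

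The members, the pathway and marker lists and the alternatives were chosen with earlier results of these data known. All members were named, and marker genes where a result turned on them. From each pathway list up to 3 called genes per direction were named or, with none called, the 2 with the smallest p. PPARD and CTNNB1 were added beyond that number after their values were seen. Alternatives were pseudocounts of 50 and 500, no filter or the 60th percentile, quantile and 75th percentile scaling, no trend, robust, the replicate number, laboratory series or chip lot as a block, myoblast arrays 2 and 3 averaged, 1 probe set per gene, and each array left out. The first laboratory series alone was added after seeing the data.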

Additional observations from a re-analysis of the deposited data

How the results depend on the processing

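Scaling, pseudocounts and filters left the member counts at 0 higher and 1 lower, and so did the no-trend, robust, chip lot, averaged-array and 1-probe-set-per-gene fits. No chip lot holds both stages, so the chip lot fit cannot take a lot effect out of the change. The series block and the first series alone gave 0 lower. In the latter the spread comes from the myotubes and is assumed to hold for the single myoblast array too. The replicate block, which is also a block for the fluidics module, gave 2 lower, DKK1 and the brighter WNT5A probe set (-0.74, adjusted p = 0.0223). It changed the call of no other member probe set or named gene, apart from CTNNB1, whose call in that fit was not followed. Deviations of same-numbered arrays from their group means correlated at r = 0.249, -0.184 and 0.38 for numbers 1, 2 and 3, so not every pair deviated together. By the run records' numbers, for which no block was fitted, the values are -0.223, -0.144 and -0.442. Leaving out 1 array gave 0 to 2 member probe sets higher and 1 to 6 lower.

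Over all probe sets, 1513 were called. A random block for chip lot gave 401. The count was 338 with the series block, 174 in the first series alone, 576 with myoblast arrays 2 and 3 averaged, 919 with no trend and 2312 with the replicate block, and 493 to 3467 with 1 array left out. Pathway genes called higher and lower were 0 and 2 with chip lot, 0 and 0 with the series block or in the first series alone, 0 and 3 with the arrays averaged, and 2 and 2 with no trend. Those called higher were 2 with 1 probe set per gene and 3 with the replicate block. With 1 array left out, 0 to 6 were called higher and 2 to 10 lower.

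None of the changes that took the other sign was called in either fit. In the series block and the first series alone these were FZD7 (0.20 and 0.19), DKK3 (0.83, 0.38 and -0.33 for 214247_s_at, 202196_s_at and 221127_s_at) and FZD6 (0.020). With the arrays averaged, DKK3 214247_s_at was at 0.041 and 221127_s_at at -0.018. With quantile scaling, FZD1 204451_at was at -0.12 and DKK3 221127_s_at at -0.18. With 1 array left out, FZD1 ranged from -0.34 to 0.54 (204451_at) and -0.80 to 0.17 (204452_s_at), and DKK3 from -0.75 to 0.077 (214247_s_at) and -0.080 to 0.30 (221127_s_at). The cause was not tested. Signals near background limit FZD1, SFRP4, FRZB, WIF1 and the DKK3 probe set 221127_s_at.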
